A study of Mus musculus with 24 samples.

Results

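The genes described here were 36 genes of the autophagy machinery, its cargo receptors and its transcription factors, chosen by gene symbol from the 52636 genes counted in RNA-seq libraries of mouse bone marrow-derived macrophages. All 36 were among the 14681 genes that passed a filter on low counts. They comprised 5 genes of the initiation kinase complex (Ulk1, Ulk2, Atg13, Rb1cc1, Atg101) and 6 of the class III phosphatidylinositol 3-kinase complex (Becn1, Pik3c3, Pik3r4, Atg14, Uvrag, Ambra1). A further 5 encode effectors of the lipid PI3P or lipid transfer proteins (Wipi1, Wipi2, Atg2a, Atg2b, Atg9a), and 10 encode the conjugation enzymes and ATG4 proteases (Atg3, Atg4a, Atg4b, Atg4c, Atg4d, Atg5, Atg7, Atg10, Atg12, Atg16l1). The remaining genes were 5 of the ATG8 family (Map1lc3a, Map1lc3b, Gabarap, Gabarapl1, Gabarapl2), 3 cargo receptors (Sqstm1, Nbr1, Calcoco1) and 2 transcription factors (Tfeb, Tfe3).

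The 24 libraries formed 8 groups of 3. Macrophages of 4 genotypes were left untreated or given R837 for 8 h; R837 is imiquimod, a small molecule that activates the endosomal RNA sensor TLR7. The genotypes were labelled TBK1-cKD IKKe knockout, TBK1-cKD control, TBK1-WT IKKe knockout and TBK1-WT control. TBK1 and IKKe (gene Ikbke) are related kinases that act downstream of innate immune receptors, and TBK1 is also known to phosphorylate cargo receptors of autophagy. The series' design text describes the cKD cells as a conditional knockout of TBK1. The allele, the promoter of any recombinase, the way IKKe was removed and what the control manipulation consisted of were not given in the sources used here. Cells of all 4 genotypes were grown from marrow with the growth factor M-CSF, and each record's protocol gives the mice as wild-type C57BL/6N. The 3 replicates of a group came from 3 individual mice; whether a mouse also gave libraries to other groups is not given.

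Autophagy encloses cytoplasmic cargo in a double membrane, the autophagosome, and delivers it to lysosomes for breakdown. The ULK kinase complex starts the process, the class III kinase complex marks the site with PI3P, ATG9A vesicles and ATG2 proteins supply lipid, and ubiquitin-like conjugation enzymes attach ATG8 proteins to the growing membrane. Receptors such as p62 (gene Sqstm1) link ubiquitinated cargo to ATG8 proteins, and the transcription factors TFEB and TFE3 act on many autophagy and lysosome genes. In macrophages the pathway is known for clearing microbes and damaged organelles and for restraining inflammatory signalling.

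Counts assigned to genes ranged between 19.7 M and 41.3 M per library, with a median of 31.4 M. Levels are given as CPM (counts-per-million, with library totals scaled by edgeR's TMM factors), changes as log2 ratios with their standard error (SE), and adjusted p-values come from edgeR's quasi-likelihood test with Benjamini-Hochberg adjustment over all 14681 genes, called below 0.05. The 10 macrophage markers summed to 28400 to 33900 CPM in 12 R837 libraries and to 16600 to 24900 CPM in 12 untreated libraries. In the TBK1-WT control response Mertk (-1.77 ± 0.149) and Cd68 (-0.78 ± 0.106) fell, and every other macrophage marker rose. The 9 neutrophil markers summed to 21.4 to 216 CPM after R837 and to 1.26 to 8.8 CPM untreated, with Retnlg at 0 in all 4 R837 groups. Of the 6 neutrophil markers tested, S100a8 and Camp rose in the TBK1-WT control response, Ltf fell and 3 were not called, with a median log2 change of -0.25. The 9 lymphocyte markers summed to 1.85 to 9.77 CPM after R837 and to 13.6 to 56.3 CPM untreated, with Cd3g at 0 in all 4 R837 groups. Among those tested in the TBK1-WT control response, Ighm fell (-3.25 ± 0.23, adjusted p = 8.42e-11). Cd79b was not called (-0.24 ± 0.353, adjusted p = 0.57). A sum can be carried by single genes, here and in the genotype comparisons below. The 7 dendritic cell markers summed to 0.616 to 2.61 CPM after R837 and to 0.487 to 1.51 CPM untreated. The 7 stromal markers summed to 29.7 to 56.6 CPM after R837 and to 19.9 to 60.6 CPM untreated. Of these stromal markers Dcn, Pdgfrb and Lum rose in the TBK1-WT control response, Col3a1 fell and the others were not called. The part of these cells in the results below was not tested.

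The libraries also split by the level of 3 nuclear RNAs (Malat1, Neat1 and Xist). Their mean log2 level lay between 8.92 and 9.62 in 14 libraries and between 5.12 and 5.42 in 10, and this split nearly coincided with treatment. All 12 untreated libraries were of high level, and of the 12 R837 libraries only TBK1-WT control replicate 1 and replicate 3 of the label TBK1-cKD IKKe knockout were. Calls lost with nuclear RNA level added to the model are named after the R837 responses.

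The targeted kinases were checked first. Tbk1 had 76.3, 74.0 and 73.4 CPM in untreated TBK1-cKD control macrophages, against 102, 104 and 100.4 CPM in untreated TBK1-WT control macrophages, a change of -0.45 ± 0.075 (adjusted p = 0.000674). In untreated cells under the label TBK1-cKD IKKe knockout Tbk1 had 87.9, 90.7 and 88.5 CPM (-0.20 ± 0.075 relative to TBK1-WT control, adjusted p = 0.0925). Ikbke had 80.6, 76.9 and 81.4 CPM in those same 3 libraries and 35.9, 34.5 and 35.0 CPM in untreated TBK1-WT IKKe knockout, against 59.0, 59.9 and 59.7 CPM in untreated TBK1-WT control. Untreated libraries of the label TBK1-cKD IKKe knockout thus held more Ikbke RNA than those of TBK1-WT control. In the edgeR fit of all libraries the difference was not called (0.42 ± 0.298, adjusted p = 0.476). It was called by edgeR with only the libraries compared (0.41, adjusted p = 1.28e-08). With nuclear RNA level as a model term it was also called (0.42, adjusted p = 0.0021). Untreated TBK1-cKD control had 71.5, 73.8 and 76.1 CPM. A level no lower than in either control goes against the label, and no library lacked the RNA. After R837 Ikbke had 77.7, 82.7 and 259 CPM under the label TBK1-cKD IKKe knockout and 239.5, 238.8 and 247.7 CPM in TBK1-cKD control. It had 77.0, 70.5 and 79.3 CPM in TBK1-WT IKKe knockout, and 406, 220.1 and 233 CPM in TBK1-WT control. Relative to TBK1-WT control the change was -1.03 ± 0.297 under the label (adjusted p = 0.0101). In TBK1-WT IKKe knockout it was -1.92 ± 0.306 (adjusted p = 0.000987). Replicates 1 and 2 of the label thus lay below both controls after R837, and replicate 3 did not. Replicate 3 was of high nuclear RNA level, and it lay below the only R837-treated control library of that level, TBK1-WT control replicate 1 at 406 CPM. Reads over exons that remain after a deletion still count, so a gene's level does not test loss of the protein. Directions that rest on the label TBK1-cKD IKKe knockout are given below as those of the libraries so labelled.

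The 36 genes spanned a wide range of levels per length. In untreated TBK1-WT control macrophages the highest was Gabarap, an ATG8 protein, at 292 ± 4.37 RPKM (reads scaled to gene length and library size; SD, n = 3), followed by Sqstm1 at 148 ± 4.34 RPKM and Gabarapl1 at 82.9 ± 3.68 RPKM. Tfe3 stood at 43.0 ± 0.782 RPKM, and 25 of the 36 genes reached 10 RPKM or more. Atg9a, a membrane-spanning protein of the core machinery, ranked 32 at 6.21 ± 0.0667 RPKM, and the lowest was Atg4a at 0.128 ± 0.0453 RPKM. Of the 35 pairs of neighbours in this order, 14 had overlapping replicate values, among them Atg5, Atg7, Becn1 and Map1lc3b, whose means lay between 18.3 and 19.2 RPKM. After R837 the same 2 genes led in TBK1-WT control, Gabarap at 351 ± 70.9 RPKM and Sqstm1 at 235 ± 8.85 RPKM, while Atg9a stood at 15.6 ± 1.12 RPKM.

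**Figure D1:**
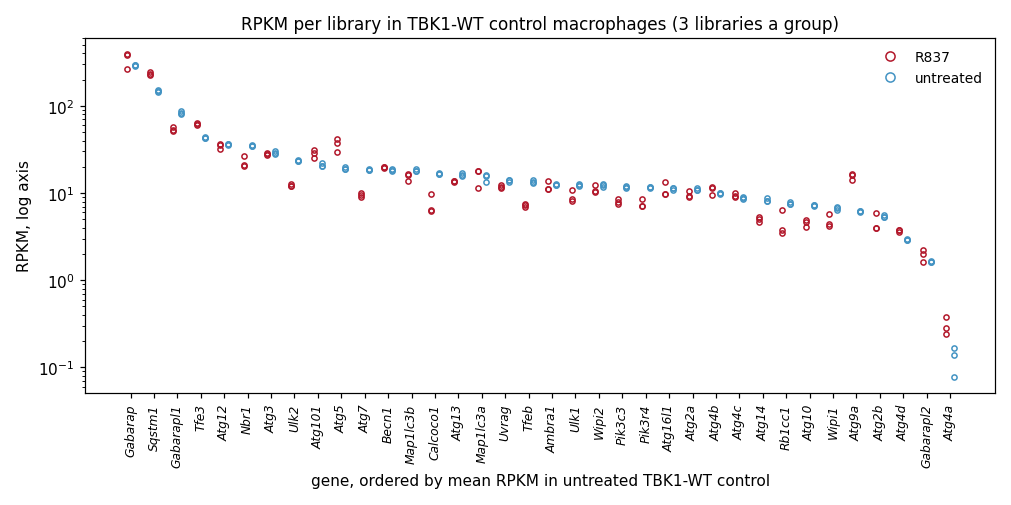
RPKM on a log axis for the 36 autophagy genes in TBK1-WT control macrophages, R837 libraries left of untreated ones for each gene; each circle is 1 library, 3 a group, and genes are ordered by their mean in untreated cells. Gabarap, Sqstm1 and Gabarapl1 stand above the rest, and Atg4a lies far below all others.

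R837 moved the RNA of most autophagy genes, in both directions and mostly by less than 2-fold. In TBK1-WT control macrophages 15 of the 36 genes rose and 12 fell; over all tested genes 62.6% were called in this comparison, 30.6% up and 32% down. The largest rise at high counts was that of Atg9a (1.56 ± 0.061, adjusted p = 4.54e-15), and the largest fall was that of Calcoco1, a receptor-related protein (-0.92 ± 0.135, adjusted p = 4.99e-06). The responses of the other genotypes were of like size: 16 rose and 14 fell under the label TBK1-cKD IKKe knockout (of all tested genes 66.5% were called, 31.6% up and 34.8% down), 14 and 13 in TBK1-cKD control (69.1%, 31.6% up and 37.5% down), and 14 and 12 in TBK1-WT IKKe knockout (70.2%, 32.4% up and 37.8% down). A scaling by library totals without TMM moved the median of all genes in the TBK1-WT control response to -0.31, against -0.04 with TMM, and turned the members' split from 15 up and 12 down into 7 up and 18 down; over all genes the split turned from 4489 up and 4700 down into 2779 up and 6754 down. Changes are therefore relative to the bulk of the transcriptome. In bulk RNA, fewer cells of a type and less RNA per cell cannot be told apart.

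The 4 responses share no library, and calls were counted across them. They come from the same fit with a shared estimate of the spread, and whether they share mice is not given. The 4 calls of a gene are therefore not independent of each other. Of the 36 genes, 13 rose in all 4 responses and 11 fell in all 4; over all tested genes 23% rose and 25.3% fell in all 4. With nuclear RNA level as a model term 8 of the 13 and 8 of the 11 were still called in all 4. Atg12, Atg4b, Atg4c, Gabarap and Gabarapl2 and, of those that fell, Atg14, Pik3c3 and Rb1cc1 lost the call in at least 1 response. Level is split from treatment only by TBK1-WT control R837 replicate 1 and R837 replicate 3 of the label TBK1-cKD IKKe knockout. Calls with that term are therefore not separate for the 4 responses. With TMM, the size factors of DESeq2 and no composition scaling alike, 6 genes rose in all 4 responses (Atg101, Atg4d, Atg5, Atg9a, Sqstm1 and Tfe3) and 10 fell in all 4 (Atg10, Atg14, Atg7, Calcoco1, Gabarapl1, Nbr1, Pik3c3, Pik3r4, Tfeb and Ulk2); of these 16, Atg14 and Pik3c3 were among the genes that lost a call with that term. With TMM only Wipi1 was called in opposite directions in different genotypes, and Atg2a, Map1lc3a and Uvrag were called in no response. Without TMM Atg2a and Uvrag were called lower in all 4.

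**Figure D2:**
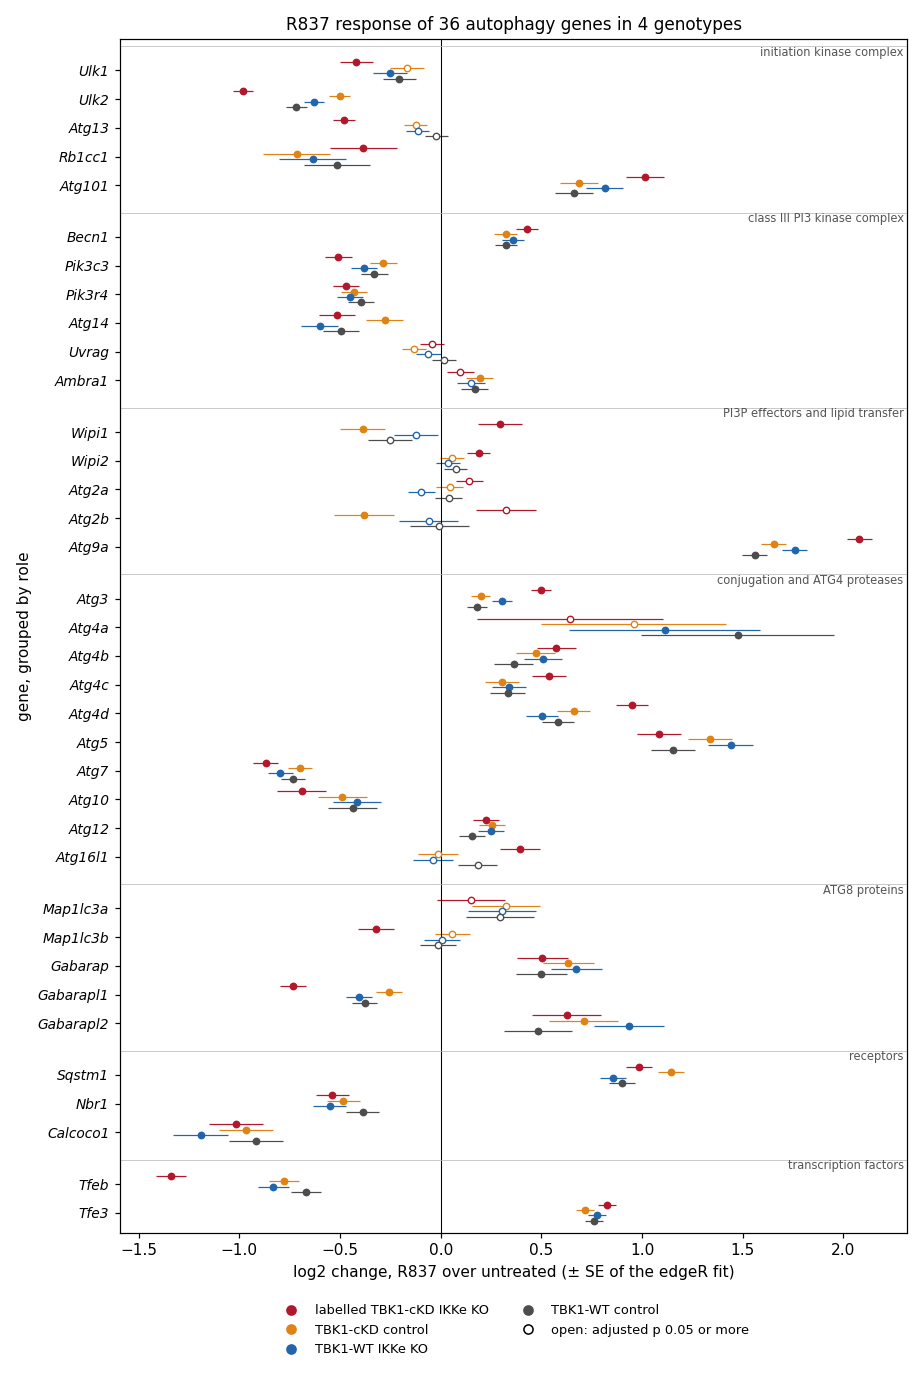
log2 change of each of the 36 genes after R837 over untreated cells (x axis, with the SE of the edgeR fit) in the 4 genotypes, grouped by role; open points have an adjusted p of 0.05 or more. With TMM scaling 15 genes rose and 12 fell in TBK1-WT control, while without TMM 7 rose and 18 fell; Atg9a lies far to the right in every genotype.

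The promoters of genes that moved in opposite directions held the same short sequence. The E-box core CACGTG, the palindrome read by TFEB, TFE3 and other basic helix-loop-helix factors, was searched on both strands in windows of 300 bases (250 before and 50 after each RefSeq start, GRCm38.p6). It was found in 4 of the 36 windows of the 30 member genes that had one, and in 7.15% of all 32851 windows. The 4 genes were Atg5, Atg3, Atg7 and Atg14. Atg5 and Atg3 rose after R837 with TMM scaling, and Atg7 and Atg14 fell. The core of the antioxidant response element, TGACNNNGC, occurred in 12.4% of all windows and in those of Atg13, Map1lc3b and Ulk2; an interferon-stimulated response element occurred in 3.44% and in that of Nbr1, and an NF-kB motif in 0.411% and in no member window. No 2 of these motifs overlapped in a member window. The windows of the 4 genes are printed with that of Atg9a, the gene of the largest rise, which held none of the 4 motifs; capitals mark CACGTG, and all are RefSeq sequence read 5′ to 3′ on the gene's strand. Atg5 is at chr10:44268089-44268388 (plus strand), with the motif starting 14 bases before the start, and Atg3 at chr16:45158579-45158878 (plus strand), with motifs 94 and 71 bases before it. Atg7 is at chr6:114670846-114671145 (plus strand), with the motif 132 bases before a RefSeq start that lies inside the gene's annotated span. Atg14 is at chr14:47568385-47568684 (minus strand), with the motif across the start, and Atg9a at chr1:75191961-75192260 (minus strand). A match is only a match of letters, and binding was not measured.
Atg5: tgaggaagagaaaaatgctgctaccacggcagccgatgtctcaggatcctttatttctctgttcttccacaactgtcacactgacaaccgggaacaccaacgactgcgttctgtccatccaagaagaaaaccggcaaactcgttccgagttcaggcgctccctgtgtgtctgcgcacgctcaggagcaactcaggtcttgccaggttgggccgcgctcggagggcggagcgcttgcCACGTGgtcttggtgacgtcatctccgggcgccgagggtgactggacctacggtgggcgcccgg
Atg3: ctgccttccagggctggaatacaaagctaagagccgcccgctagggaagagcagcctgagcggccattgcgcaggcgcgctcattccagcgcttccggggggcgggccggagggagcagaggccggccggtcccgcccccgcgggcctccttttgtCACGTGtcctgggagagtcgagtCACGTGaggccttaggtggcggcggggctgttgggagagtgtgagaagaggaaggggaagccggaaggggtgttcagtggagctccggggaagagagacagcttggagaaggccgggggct
Atg7: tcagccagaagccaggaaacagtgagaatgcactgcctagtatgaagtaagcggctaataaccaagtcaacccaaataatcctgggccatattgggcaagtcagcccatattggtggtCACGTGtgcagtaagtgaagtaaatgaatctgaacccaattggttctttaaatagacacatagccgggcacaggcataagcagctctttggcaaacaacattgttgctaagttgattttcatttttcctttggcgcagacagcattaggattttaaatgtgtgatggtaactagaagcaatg
Atg14: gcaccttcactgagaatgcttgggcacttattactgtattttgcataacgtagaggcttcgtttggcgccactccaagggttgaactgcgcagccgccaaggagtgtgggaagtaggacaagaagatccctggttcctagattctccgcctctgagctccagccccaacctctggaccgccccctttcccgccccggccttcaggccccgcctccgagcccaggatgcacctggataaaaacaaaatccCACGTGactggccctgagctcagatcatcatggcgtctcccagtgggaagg
Atg9a: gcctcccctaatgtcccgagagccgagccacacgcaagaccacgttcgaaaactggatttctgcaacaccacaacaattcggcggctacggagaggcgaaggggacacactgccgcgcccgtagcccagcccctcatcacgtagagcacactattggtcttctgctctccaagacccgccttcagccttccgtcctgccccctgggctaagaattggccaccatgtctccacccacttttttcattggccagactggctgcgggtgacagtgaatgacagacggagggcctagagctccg

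In the initiation kinase complex 1 of 5 genes rose and 3 fell in TBK1-WT control cells (1 and 4 without TMM). Atg101, a subunit that stabilises ATG13, had 35.5, 44.7 and 41.9 CPM after R837, against 24.9, 25.1 and 27.2 CPM untreated, a rise of 0.66 ± 0.093 (adjusted p = 2.79e-06). Its rise passed 2-fold under the label TBK1-cKD IKKe knockout, with 52.4, 54.4 and 45.2 CPM after R837, against 26.3, 23.6 and 25.4 CPM untreated (1.01 ± 0.094, adjusted p = 4.77e-09). The R837 and untreated values did not overlap in either genotype. Ulk2, 1 of the 2 ULK kinases of the complex, fell: it had 78.4, 80.2 and 85.6 CPM after R837, against 138, 132 and 132 CPM untreated in TBK1-WT control cells (-0.72 ± 0.051, adjusted p = 8.7e-11). Ulk1, the other kinase, had 64.0, 52.0 and 50.9 CPM after R837, against 65.7, 62.7 and 64.4 CPM untreated (-0.21 ± 0.082, adjusted p = 0.0344), and its groups overlapped. The fall of Ulk1 was not called with nuclear RNA level as a model term (-0.06, adjusted p = 0.489). Atg13, the adaptor of the complex, did not pass the test in TBK1-WT control cells (-0.02 ± 0.056, adjusted p = 0.745).

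In the class III kinase complex 2 of 6 genes rose and 3 fell in TBK1-WT control cells, but none rose and 4 fell without TMM. Becn1, the scaffold of the complex, had 106, 111 and 107 CPM after R837, against 87.9, 86.8 and 84.0 CPM untreated (0.32 ± 0.055, adjusted p = 2.89e-05). Without TMM its change was 0.06 (adjusted p = 0.299), and 36.8% of its 50-base windows also occur in the overlapping gene Cntd1, which had 0 to 16 counts per R837 library and 11 to 36 counts per untreated library. Atg14, the subunit that directs the complex to autophagosome formation, showed the largest fall of the group, with 21.2, 20.3 and 19.1 CPM after R837, against 29.8, 28.1 and 27.6 CPM untreated (-0.50 ± 0.09, adjusted p = 6.89e-05). The catalytic subunit Pik3c3 and its regulatory partner Pik3r4 fell by 0.33 and 0.40 on the log2 scale (adjusted p = 0.000204 and 1.85e-05). All 3 fell in each of the 4 responses, but Atg14 and Pik3c3 were not called in TBK1-cKD control with nuclear RNA level as a model term. Uvrag, which replaces ATG14 in a second form of the complex, did not pass the test in TBK1-WT control cells (0.02 ± 0.06, adjusted p = 0.812). Ambra1, a regulator that binds the scaffold, had 83.1, 68.6 and 70.0 CPM after R837, against 64.3, 65.9 and 67.1 CPM untreated, a rise of 0.17 ± 0.068 with TMM (adjusted p = 0.0362) and a change of -0.09 without it (adjusted p = 0.319).

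Atg9a was the only one of the 5 PI3P effector and lipid transfer genes that was called in TBK1-WT control cells; without TMM it rose and 3 others fell. ATG9A sits in the vesicles that seed the autophagosome membrane and moves lipids between the leaflets of a membrane. In TBK1-WT control cells it had 71.5, 82.5 and 84.9 CPM after R837, against 27.0, 26.8 and 27.2 CPM untreated. In TBK1-WT IKKe knockout cells it had 100.0, 95.0 and 100.4 CPM after R837, against 28.1, 29.4 and 29.8 CPM untreated, a rise of 1.76 ± 0.062 (adjusted p = 5.72e-16). In TBK1-cKD control cells it had 83.8, 85.0 and 84.5 CPM after R837, against 26.1, 27.0 and 27.4 CPM untreated, a rise of 1.65 ± 0.062 (adjusted p = 1.87e-15). The groups were far apart in each genotype, and the spread within a group was small beside the change. Under the label TBK1-cKD IKKe knockout it had 132, 138 and 123 CPM after R837, against 30.1, 30.7 and 32.1 CPM untreated, a rise of 2.08 ± 0.062 (adjusted p = 3.6e-17). Of the 50-base windows of Atg9a 30.5% also occur in the overlapping gene Gm29253, which had 0 to 18 counts per R837 library and 2 to 12 counts per untreated library. No member other than Atg9a and Atg5 rose at least 2-fold in all 4 responses. Wipi2 and Atg2a changed by at most 0.19 on the log2 scale in any genotype with TMM, and of these 8 values only that of Wipi2 under the label TBK1-cKD IKKe knockout was called (0.19 ± 0.058, adjusted p = 0.00769); without TMM it was -0.20 (adjusted p = 0.0164).

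The conjugation enzymes and ATG4 proteases, the largest group at 10 genes, had the most rises. In TBK1-WT control cells 7 rose and 2 fell, beside 30.6% of all tested genes up and 32% down. Without TMM 3 rose and 2 fell, beside 2779 and 6754 of all 14681 tested genes. Of the rises, those of Atg4b, Atg12 and Atg4a were not called with nuclear RNA level as a model term. Atg5, which joins with ATG12 in the conjugate that helps attach ATG8 proteins to lipid, had 79.3, 115 and 106 CPM after R837, against 46.3, 43.7 and 44.6 CPM untreated in TBK1-WT control cells (1.15 ± 0.109, adjusted p = 8.61e-09). Its rise was 1.08 ± 0.109 under the label TBK1-cKD IKKe knockout, 1.34 ± 0.11 for TBK1-cKD control, and 1.44 ± 0.11 for TBK1-WT IKKe knockout, with no overlap of groups in any genotype. The lowest R837 values in 2 genotypes, 79.3 and 89.6 CPM, belonged to the 2 R837 libraries of high nuclear RNA level. Atg7, the E1-like enzyme that activates both ATG12 and the ATG8 proteins, moved the other way, with 42.3, 45.0 and 48.5 CPM after R837, against 74.8, 74.7 and 76.0 CPM untreated (-0.73 ± 0.061, adjusted p = 1.14e-09). The E2-like enzymes of the pathway differed: Atg10, which acts on ATG12, fell by 0.44 ± 0.12 (adjusted p = 0.00333), and Atg3, which acts on ATG8 proteins, had 67.0, 68.0 and 66.2 CPM after R837, against 59.1, 61.9 and 56.7 CPM untreated (0.18 ± 0.049, adjusted p = 0.00329). Without TMM the change of Atg3 was -0.09 (adjusted p = 0.123). Atg12, the ubiquitin-like protein joined to ATG5, had 90.5, 106 and 105 CPM after R837, against 90.9, 88.7 and 90.3 CPM untreated; its change of 0.16 ± 0.065 was called (adjusted p = 0.0417) although the groups overlapped, and it was -0.11 without TMM. Atg16l1, which places the ATG12-ATG5 conjugate on the membrane, was called only under the label TBK1-cKD IKKe knockout (0.40 ± 0.099, adjusted p = 0.00149), and there not without TMM (adjusted p = 0.927).

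The proteases of the ATG4 family, which trim ATG8 proteins before conjugation and release them from membranes, all rose in TBK1-WT control cells with TMM scaling, 4 of 4. Atg4d had 24.3, 26.3 and 26.8 CPM after R837, against 17.1, 17.0 and 17.5 CPM untreated in TBK1-WT control cells (0.58 ± 0.079, adjusted p = 1.7e-06). Atg4b and Atg4c rose by 0.36 ± 0.096 and 0.33 ± 0.086 (adjusted p = 0.00257 and 0.00203), but not without TMM (adjusted p = 0.316 and 0.467). Atg4a was barely present, with 25, 22 and 25 counts after R837, against 8, 13 and 11 counts untreated (1.48 ± 0.479, adjusted p = 0.0111). Of its 50-base windows 51.2% are shared with the pseudogene Atg4a-ps, so its counts are uncertain. The shared part of Atg4d with the overlapping gene Kri1 was 14.6% of windows. Kri1 had 425 to 2314 counts per R837 library and 819 to 1563 counts per untreated library. How reads in the shared part were counted is not given, so the counts of Atg4d are uncertain too.

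Among the ATG8 proteins 2 of 5 genes rose and 1 fell in TBK1-WT control cells, but none rose and 2 fell without TMM. Gabarapl1 had 107, 123 and 115 CPM after R837, against 157, 145 and 148 CPM untreated (-0.38 ± 0.064, adjusted p = 3.2e-05), and the groups did not overlap. Map1lc3b, whose protein LC3B is the common marker of autophagosomes, had 81.7, 99.9 and 98.6 CPM after R837, against 97.1, 92.9 and 92.6 CPM untreated, and did not pass the test (-0.01 ± 0.088, adjusted p = 0.902). Gabarap had 414, 622 and 622 CPM after R837, against 393, 386 and 394 CPM untreated (0.50 ± 0.127, adjusted p = 0.00189). The low value of Gabarap was that of the R837 library of high nuclear RNA level, and the change is taken up again below. Gabarapl2, the least abundant of the family, had 3.06, 4.34 and 4.02 CPM after R837, against 2.77, 2.67 and 2.67 CPM untreated (0.48 ± 0.169, adjusted p = 0.0175). Of its 50-base windows 12.2% also occur in other genes, most of them in Gm3724. That gene had 50 to 161 counts per R837 library and 28 to 75 counts per untreated library, so the level and rise of Gabarapl2 are uncertain.

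The 3 cargo receptors split, and their split was the same in all 4 responses and without TMM: Sqstm1 rose, and Nbr1 and Calcoco1 fell. Sqstm1 had 728, 804 and 783 CPM after R837, against 412, 403 and 424 CPM untreated in TBK1-WT control cells (0.90 ± 0.064, adjusted p = 8.7e-11). It passed 2-fold in TBK1-cKD control cells, with 959.6, 828 and 992 CPM after R837, against 431, 411 and 414 CPM untreated (1.15 ± 0.064, adjusted p = 1.77e-12). The R837 libraries lay above all untreated ones of their genotype. The overlapping gene Mrnip shares 15.5% of the windows of Sqstm1 but had 4 to 42 counts per R837 library and 59 to 143 counts per untreated library. Nbr1, a receptor related to p62, had 161, 125 and 128 CPM after R837, against 183, 179.8 and 179 CPM untreated (-0.39 ± 0.082, adjusted p = 0.000342). Calcoco1, known as a receptor for endoplasmic reticulum and Golgi membranes, had 42.3, 27.4 and 28.3 CPM after R837, against 61.3, 61.7 and 62.8 CPM untreated. Its fall was 1.02 ± 0.135 on the log2 scale under the label TBK1-cKD IKKe knockout and 1.19 ± 0.137 in TBK1-WT IKKe knockout (adjusted p = 1.1e-06 and 1.44e-07).

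The 2 transcription factors also moved apart. Tfe3 had 264, 255 and 266 CPM after R837, against 152, 153 and 157 CPM untreated in TBK1-WT control cells, a rise of 0.76 ± 0.045 (adjusted p = 4.08e-12). Tfeb had 34.7, 34.2 and 32.8 CPM after R837, against 52.2, 53.5 and 56.2 CPM untreated, a fall of 0.67 ± 0.075 (adjusted p = 1.06e-07). Both directions held in all 4 genotypes and without TMM, and no R837 value lay within the untreated range of its genotype. Both factors are known to be controlled mainly by phosphorylation and nuclear entry, which RNA levels do not show.

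**Figure D3:**
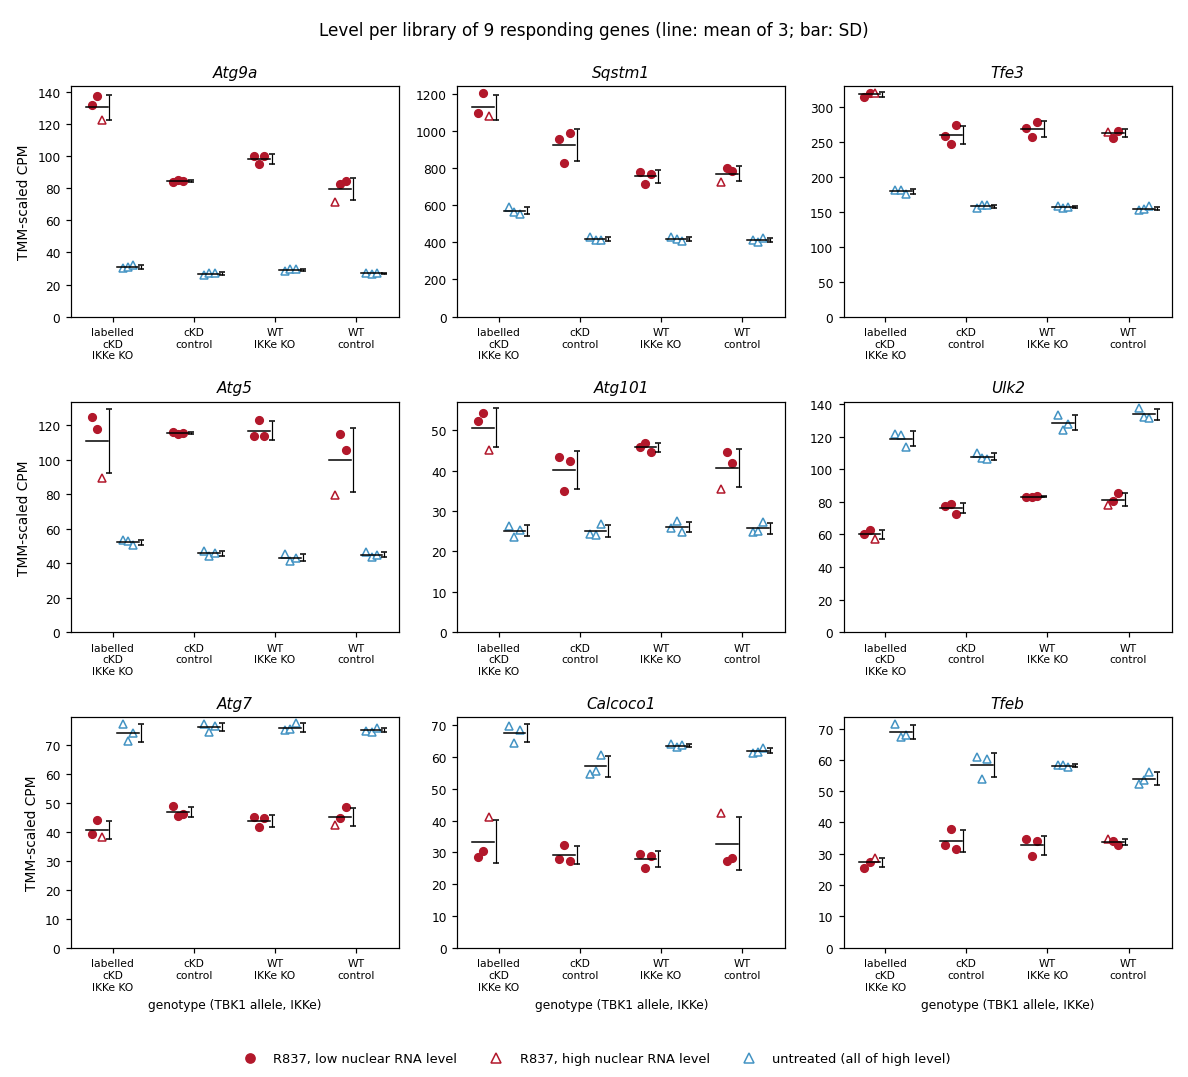
TMM-scaled CPM per library for 9 responding genes, R837 left of untreated in each genotype; lines are means of 3 libraries and bars the SD, and triangles mark libraries of high nuclear RNA level. Atg9a, Sqstm1, Tfe3, Atg5 and Atg101 lie higher after R837 and Ulk2, Atg7, Calcoco1 and Tfeb lower in every genotype, with no overlap; these directions were the same without TMM.

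The R837 libraries of high nuclear RNA level stood apart from their group mates in most of the 36 genes. The high-level library lay outside the range of its 2 group mates for 35 genes under the label TBK1-cKD IKKe knockout (all but Tfe3) and for 34 in TBK1-WT control (all but Atg3 and Tfe3). Gabarap and 5 further genes are given as examples. Gabarap had 625 and 621 CPM in the 2 low-level R837 libraries under the label TBK1-cKD IKKe knockout and 417 CPM in the high-level one, against 395, 387 and 389 CPM untreated. In both genotypes with such a library the high-level R837 value of Gabarap lay nearer to the untreated values than to its group mates. With nuclear RNA level as a model term its response in TBK1-WT control cells was 0.09 (adjusted p = 0.086), and within the high-level libraries alone it was also 0.09 (adjusted p = 0.105). The further examples Rb1cc1, Atg4b, Map1lc3a, Atg2b and Wipi1 were chosen after their values were seen. Rb1cc1, the FIP200 scaffold of the initiation complex, had 55.1 CPM in the high-level R837 library of TBK1-WT control and 33.1 and 31.6 CPM in the others, against 58.8, 56.9 and 55.9 CPM untreated. Its fall of 0.52 ± 0.166 on the log2 scale (adjusted p = 0.0104) was -0.09 with the level as a term (adjusted p = 0.265). Atg4b had 44.9 CPM in that library and 57.1 and 56.0 CPM in the others, against 40.9, 41.4 and 40.3 CPM untreated. Map1lc3a, which encodes LC3A, had 14.7 CPM there and 23.4 and 23.3 CPM in the others, against 14.9, 17.8 and 17.1 CPM untreated. In each of these genes the high-level library stood apart from its 2 group mates. Atg2b, a lipid transfer protein, showed the reverse side of this: it had 50.3 CPM in the high-level library and 34.8 and 35.4 CPM in the others, against 41.5, 39.8 and 39.96 CPM untreated. Wipi1, a PI3P-binding protein, had 39.4 CPM in the high-level R837 library of the label TBK1-cKD IKKe knockout and 27.3 and 28.7 CPM in the others, against 24.9, 27.2 and 25.9 CPM untreated.

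With nuclear RNA level as a model term, 20 of the 27 member calls of the TBK1-WT control response remained, and the 7 lost were Gabarap, Rb1cc1, Atg4b, Ulk1, Gabarapl2, Atg12 and Atg4a. Under the label TBK1-cKD IKKe knockout 26 of 30 calls remained, and the 4 lost were Gabarap, Rb1cc1, Gabarapl2 and Atg12. In TBK1-cKD control 17 of 27 remained, and the 10 lost were Gabarap, Rb1cc1, Atg4b, Atg4c, Gabarapl2, Atg12, Pik3c3, Atg14, Atg2b and Wipi1. In TBK1-WT IKKe knockout 19 of 26 remained, and the 7 lost were Gabarap, Rb1cc1, Atg4b, Atg4c, Ulk1, Atg12 and Atg4a. In these 2 genotypes the level and the treatment cannot be told apart within the genotype. The term there carries over an estimate from the groups of the 2 R837 libraries of high level. Leaving out the 2 R837 libraries of high level removed no call in either affected genotype; without them the level and the treatment coincide in all libraries.

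**Figure D4:**
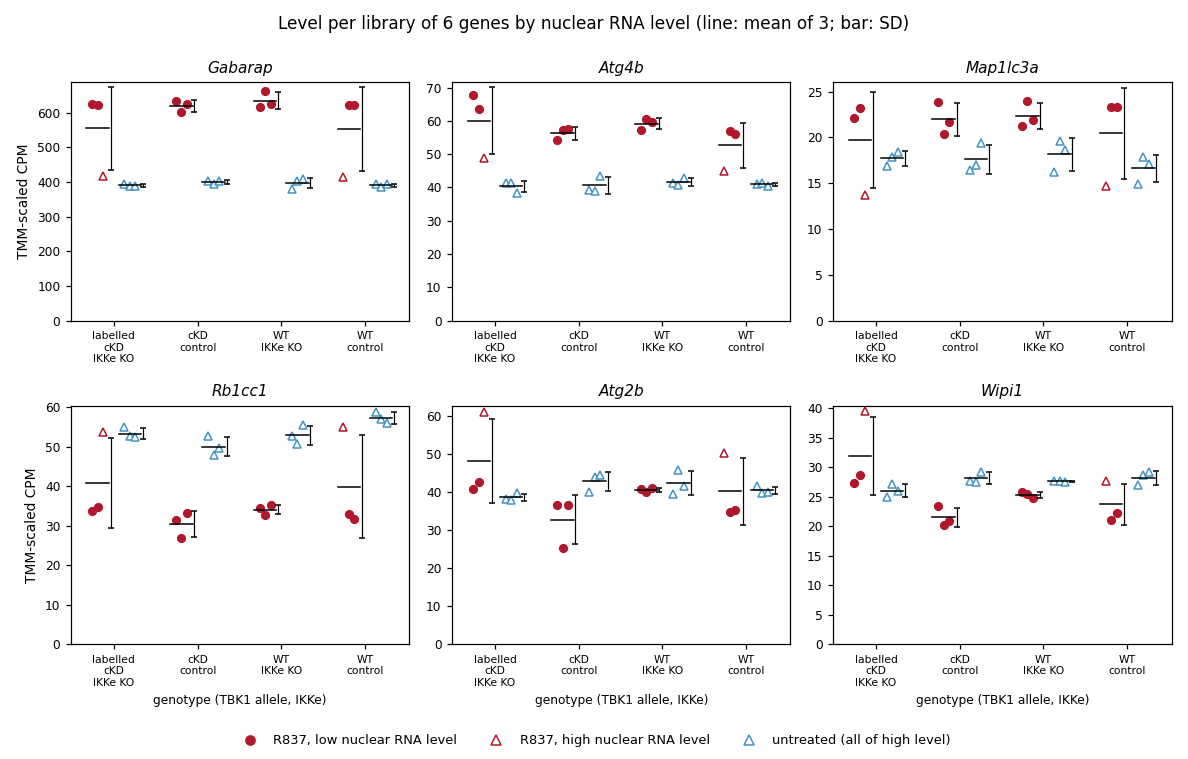
TMM-scaled CPM per library for 6 example genes chosen after their values were seen, R837 left of untreated; open triangles are libraries of high level, lines are means of 3 and bars the SD. In TBK1-WT control and in the label TBK1-cKD IKKe knockout the single R837 triangle stands apart from its 2 group mates, as for Gabarap at 414 CPM beside 622 and 622 CPM.

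Few of the 36 genes differed between genotypes in untreated cells, apart from those under the label TBK1-cKD IKKe knockout. All genotype comparisons share the TBK1-WT control libraries, so their values are given side by side only. In untreated TBK1-WT IKKe knockout cells 0 of 36 members were called by edgeR, none had an unadjusted p below 0.05 and DESeq2 called none. Over all tested genes 0% were called by edgeR, 422 genes had an unadjusted p below 0.05, and DESeq2 called 1. Ikbke, the targeted gene, was not called by edgeR either (-0.76 ± 0.302), although its groups did not overlap. With only the libraries compared edgeR called it (-0.76, adjusted p = 4.52e-06). The absence of calls here therefore does not show that no gene changed. In untreated TBK1-cKD control cells 1 member was called, against 5.05% of all tested genes: Ulk2 had 110.2, 107 and 106 CPM, against 138, 132 and 132 CPM in TBK1-WT control (-0.31 ± 0.051, adjusted p = 0.000558). The 2 groups did not overlap. Members called were 2 with nuclear RNA level as a model term, 5 in the high-level libraries alone and 4 with only the libraries compared. In these TBK1-cKD control libraries the neutrophil markers summed to 1.26 to 1.96 CPM, against 6.13 to 8.8 CPM in TBK1-WT control. The lymphocyte markers summed to 30.2 to 38.1 CPM, against 41.5 to 56.3 CPM, and the stromal markers to 31.0 to 32.7 CPM, against 49.4 to 60.4 CPM; the part of these cells was not tested.

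In untreated cells under the label TBK1-cKD IKKe knockout 6 members were higher and 1 was lower than in TBK1-WT control (13.6% of all tested genes called, 8.52% higher and 5.1% lower). Without TMM 3 members were higher and 2 lower, beside 966 and 1373 of all 14681 tested genes. Sqstm1 had 591, 564 and 554 CPM, against 412, 403 and 424 CPM in TBK1-WT control (0.47 ± 0.064, adjusted p = 1.79e-05). Atg13 had 71.5, 74.9 and 73.8 CPM, against 56.6, 59.0 and 61.5 CPM (0.32 ± 0.056, adjusted p = 0.000374). Tfeb had 71.4, 67.4 and 67.9 CPM, against 52.2, 53.5 and 56.2 CPM (0.35 ± 0.074, adjusted p = 0.00183). None of these 3 groups overlapped their TBK1-WT control values, and all 3 were called under every alternative tried. Tfe3 had 181, 181 and 175 CPM, against 152, 153 and 157 CPM (0.22 ± 0.045, adjusted p = 0.00177), which was not called without TMM (adjusted p = 0.0719). Ulk2 was lower, with 122, 121 and 114 CPM, against 138, 132 and 132 CPM (-0.17 ± 0.05, adjusted p = 0.0236). That call was lost without TBK1-WT control replicate 1 (adjusted p = 0.121) or 2 (0.0541), or without replicate 3 of the label (0.141). Atg9a had 30.1, 30.7 and 32.1 CPM, against 27.0, 26.8 and 27.2 CPM (0.20 ± 0.061, adjusted p = 0.0343). The calls of Atg9a and of Ulk1 (0.26 ± 0.082, adjusted p = 0.0419) were each lost on leaving out any 1 of the 6 libraries. Beside these values, the lymphocyte markers summed to 13.6 to 17.8 CPM under the label and to 41.5 to 56.3 CPM in TBK1-WT control, and the 9 neutrophil markers to 1.34 to 1.84 CPM and 6.13 to 8.8 CPM. The macrophage markers summed to 23600 to 24900 CPM under the label and to 16600 to 17700 CPM in TBK1-WT control, and the stromal markers to 19.9 to 27.3 CPM and 49.4 to 60.4 CPM. Their part in these differences was not tested.

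After R837 the genotypes differed in single genes, and again most under the label TBK1-cKD IKKe knockout. In TBK1-WT IKKe knockout 1 member was called (1.85% of all tested genes): Atg9a had 100.0, 95.0 and 100.4 CPM, against 71.5, 82.5 and 84.9 CPM in TBK1-WT control (0.31 ± 0.06, adjusted p = 0.00633). Without TBK1-WT control replicate 1, the R837 library of high nuclear RNA level, the change was 0.23 (adjusted p = 0.0714). In TBK1-cKD control 2 members were called (8.89%), and without TMM 4, beside 1552 of all 14681 tested genes. Sqstm1 had 959.6, 828 and 992 CPM, against 728, 804 and 783 CPM in TBK1-WT control (0.26 ± 0.063, adjusted p = 0.0113). Uvrag had 62.7, 56.2 and 66.6 CPM, against 73.4, 71.5 and 70.7 CPM (-0.22 ± 0.06, adjusted p = 0.0273). Neither group overlapped, but both calls were lost without TBK1-WT control replicate 1 (adjusted p = 0.114 and 0.0982). The call of Sqstm1 was also lost without TBK1-cKD control replicate 3 (adjusted p = 0.0577), and that of Uvrag without replicate 2 (adjusted p = 0.136).

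After R837, under the label TBK1-cKD IKKe knockout, 13 members were higher and 4 lower than in TBK1-WT control (32.2% of all tested genes called, 16.7% higher and 15.5% lower). Without TMM 3 members were higher and 12 lower, beside 1410 and 4838 of all 14681 tested genes. Atg9a had 132, 138 and 123 CPM, against 71.5, 82.5 and 84.9 CPM in TBK1-WT control (difference 0.72 ± 0.06, adjusted p = 4.86e-09). Sqstm1 had 1099, 1204 and 1081 CPM, against 728, 804 and 783 CPM (0.55 ± 0.064, adjusted p = 6.16e-07). Atg4d had 40.1, 40.6 and 35.1 CPM, against 24.3, 26.3 and 26.8 CPM (0.58 ± 0.078, adjusted p = 4.48e-06). These 3 groups did not overlap, and the direction was the same under each scaling. Ulk2 had 59.9, 62.8 and 57.4 CPM, against 78.4, 80.2 and 85.6 CPM (-0.44 ± 0.051, adjusted p = 6.51e-07), and was lower under each scaling. Tfe3 had 314, 320 and 320 CPM, against 264, 255 and 266 CPM (0.28 ± 0.045, adjusted p = 3.84e-05). Atg3 had 80.4, 79.0 and 76.3 CPM, against 67.0, 68.0 and 66.2 CPM (0.23 ± 0.049, adjusted p = 0.000929). Both groups were apart in CPM with TMM, but neither gene was called without it (adjusted p = 0.236 and 0.778). The other 7 members that were higher were Wipi1 (0.43), Atg4c (0.37), Atg101 (0.32), Atg16l1 (0.29), Atg2a (0.26), Atg12 (0.24) and Becn1 (0.22), and the last was Wipi2 (0.17 with TMM, -0.04 without); none of these was called without TMM. The other 3 that were lower were Tfeb (-0.32), Gabarapl1 (-0.29) and Pik3c3 (-0.18), with adjusted p-values of 0.00245, 0.00148 and 0.0494. In all, 10 of the 17 calls were lost without TMM, and none with nuclear RNA level as a model term. With only the libraries compared 7 members were called, and Wipi2, Pik3c3 and Becn1 lost the call in the libraries of high nuclear RNA level. The neutrophil markers summed to 123 to 216 CPM in these libraries and to 21.4 to 24.1 CPM in R837-treated TBK1-WT control, with Elane, Ly6g and Retnlg at 0 in both groups. The 6 neutrophil markers tested did not move together: S100a8 (3.16 ± 0.183) and Camp were higher under the label, S100a9, Mpo, Ngp and Ltf were lower, and the median difference was -3.16. The lymphocyte markers summed to 1.85 to 3.44 CPM under the label, against 6.68 to 9.31 CPM in TBK1-WT control, and the stromal markers to 31.8 to 40.4 CPM, against 45.2 to 56.6 CPM. The part of these cells was not tested.

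**Figure D5:**
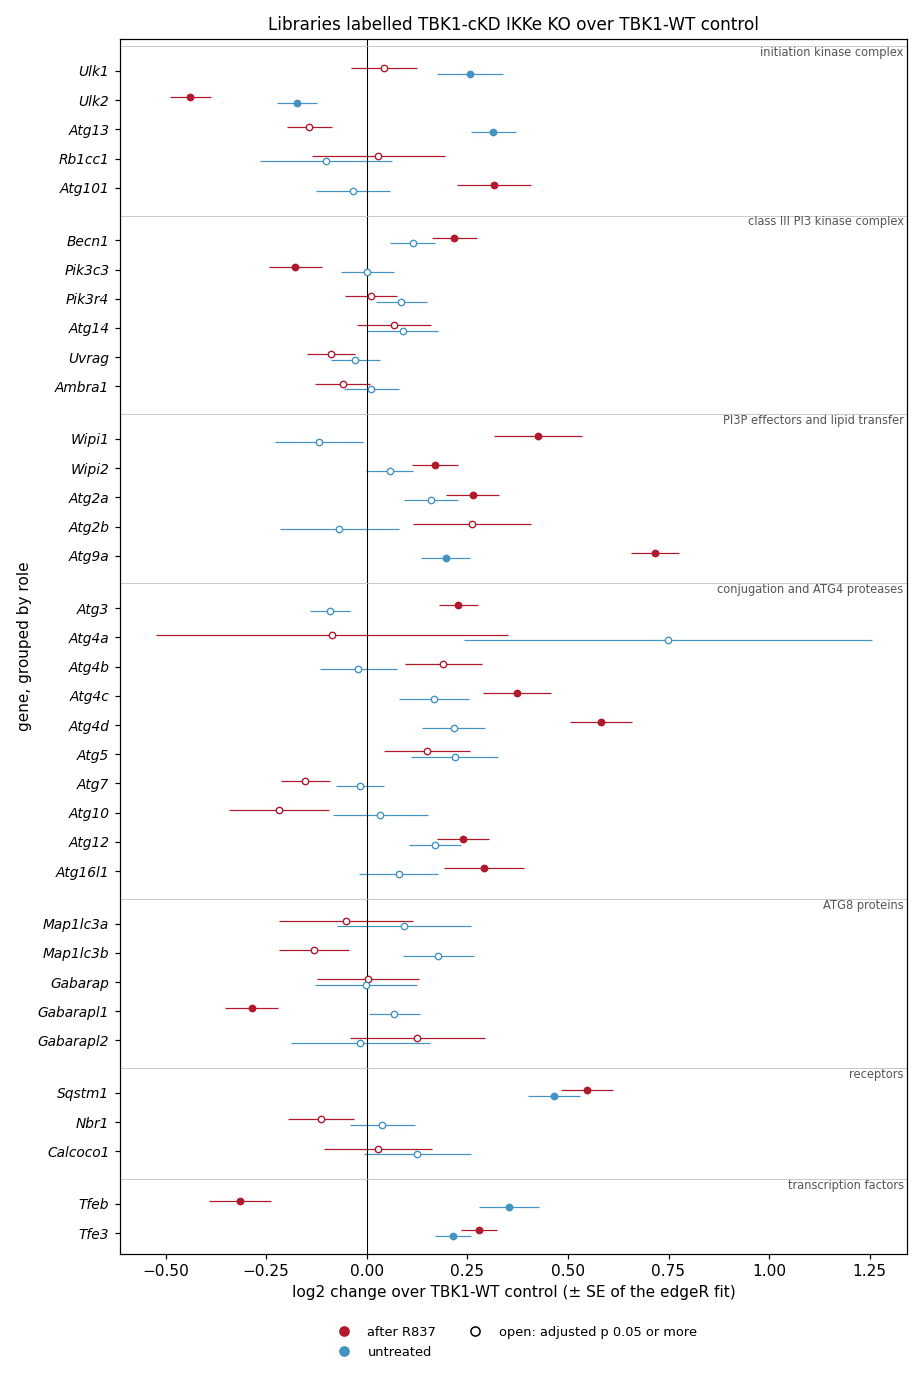
log2 change of each of the 36 genes under the label TBK1-cKD IKKe knockout over TBK1-WT control (x axis, with the SE of the edgeR fit), after R837 and untreated; open points have an adjusted p of 0.05 or more. After R837 13 genes lie higher and 4 lower. Without TMM these were 3 and 12, beside 1410 and 4838 of all 14681 tested genes. Atg9a, Atg4d and Sqstm1 lie farthest right.

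The R837 response itself differed from that of TBK1-WT control for 8 members under the label TBK1-cKD IKKe knockout, 4 upward and 4 downward (17.3% of all tested genes called, 7.38% upward and 9.96% downward). Without TMM the split was 2 and 6, beside 715 and 2364 of all 14681 tested genes. The difference of responses was -0.67 ± 0.106 for Tfeb (adjusted p = 8.07e-05): it had 25.5, 27.5 and 28.6 CPM after R837 and 71.4, 67.4 and 67.9 CPM untreated under the label, against 34.7, 34.2 and 32.8 CPM and 52.2, 53.5 and 56.2 CPM in TBK1-WT control. Tfeb was thus higher than in TBK1-WT control before treatment and lower after it. Atg13 was higher before treatment as well, with 54.7, 54.7 and 48.5 CPM after R837 and 71.5, 74.9 and 73.8 CPM untreated under the label, against 55.9, 59.4 and 59.2 CPM and 56.6, 59.0 and 61.5 CPM in TBK1-WT control (difference -0.46 ± 0.079, adjusted p = 0.000223). After R837 its 3 values under the label lay below those of TBK1-WT control, but that difference was not called (-0.14 ± 0.056, adjusted p = 0.0578). Gabarapl1 had 92.6, 103 and 87.4 CPM after R837 and 159, 157 and 155 CPM untreated under the label, against 107, 123 and 115 CPM and 157, 145 and 148 CPM in TBK1-WT control (-0.36 ± 0.091, adjusted p = 0.00829). The rise of Atg9a was larger under the label by 0.52 ± 0.085 (adjusted p = 0.000123), that of Atg3 by 0.32 ± 0.069 (adjusted p = 0.00211), and the fall of Ulk2 was larger, with a difference of -0.27 ± 0.072 (adjusted p = 0.012). In TBK1-WT IKKe knockout 0 members differed in response by edgeR or DESeq2 (0.245% of all tested genes called by edgeR), and 1 had an unadjusted p below 0.05. In TBK1-cKD control 0 members were called by edgeR (0.879%) and 2 had an unadjusted p below 0.05; DESeq2 called Ulk2 (difference 0.24, adjusted p = 0.0413).

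Other genes of the pathway were taken from lists made with earlier results of these data known, and all counts here are for the TBK1-WT control response. Of 15 tested further receptors 7 rose and 3 fell (3 and 6 without TMM), beside 30.6% of all tested genes up and 32% down. Bnip3, a mitophagy receptor, had 11.01, 16.9 and 16.1 CPM after R837, against 1.79, 2.98 and 2.70 CPM untreated (2.56 ± 0.422, adjusted p = 2.11e-05), and Retreg1, a receptor for endoplasmic reticulum, fell by 1.096 ± 0.086 on the log2 scale (adjusted p = 4.49e-10). Of 11 further core genes 4 rose and 5 fell (2 and 5 without TMM). Tecpr1, which acts where autophagosomes meet lysosomes, had 61.1, 32.5 and 34.8 CPM after R837, against 186, 169 and 175 CPM untreated (-2.04 ± 0.192, adjusted p = 8.26e-09). Trp53inp1 fell by 1.66 ± 0.08, and Vmp1, an endoplasmic reticulum protein needed for autophagosome formation, rose by 1.45 ± 0.07.

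Of 13 autophagosome-lysosome fusion genes 4 rose and 5 fell (2 and 10 without TMM), and of 18 lysosomal genes of the TFEB target network 4 rose and 6 fell (3 and 14 without TMM). In that network Gla, a lysosomal galactosidase, fell by 1.04 ± 0.075. Of 23 genes of mTORC1, AMPK and folliculin control 8 rose and 9 fell (4 and 12 without TMM). Rragd, a GTPase that recruits mTORC1 to lysosomes, had 5.02, 5.42 and 4.78 CPM after R837, against 37.8, 36.5 and 32.6 CPM untreated (-2.81 ± 0.124, adjusted p = 3.17e-14). Deptor, an inhibitor of mTOR, fell by 2.51 ± 0.17, and Ddit4, an upstream inhibitor of mTORC1, rose by 1.93 ± 0.349. Of 3 relatives and regulators of Tfeb 2 rose and 1 fell (1 and 1 without TMM), and among them the transcription factor Tfec rose by 1.45 ± 0.096. Every one of the 9 genes of the NRF2 list rose, 7 without TMM; NRF2 is the antioxidant transcription factor whose repressor KEAP1 is bound by p62, and the median change was 1.39 against -0.04 over all genes. Slc7a11, the cystine transporter, had 183, 209 and 183 CPM after R837, against 3.56, 3.50 and 3.59 CPM untreated (5.75 ± 0.115, adjusted p = 8.93e-20), and Hmox1 and Gclm rose by 3.46 ± 0.115 and 2.68 ± 0.108.

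In untreated cells under the label TBK1-cKD IKKe knockout, where Sqstm1 was higher than in TBK1-WT control, 7 of 9 genes of the NRF2 list and 6 of 18 lysosomal genes were higher and none lower (5 and 4 without TMM), beside 8.52% of all tested genes higher. Of the 10 macrophage markers 8 were also higher in these libraries (5 without TMM), and their part was not tested. Slc7a11 stood 2.25 ± 0.107 higher and the chloride transporter Clcn7 0.77 ± 0.066 higher (adjusted p = 1.64e-12 and 2.37e-08). In untreated TBK1-cKD control 4 of 9 and 0 of 18 were higher, beside 353 of all 14681 tested genes higher. Without TMM these were 2 and 1, beside 278 of all tested genes higher.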

How the data were processed

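Per the labels' protocols, total RNA of macrophages was made into TruSeq libraries. The authors deposited, per library, raw read counts per gene and RPKM values (reads scaled to gene length and library size) for 52636 Ensembl genes. Reads were aligned with GSNAP to GRCm38, as far as the submitters' processing notes name tools and builds. How reads were counted, with which strand setting and annotation, is not given in the sources used here, so overlapping genes and near-identical copies may share reads. The 233 IDs without a symbol held 0.0187% of the counts.

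Groups came from the sample titles, since the treatment text is the same on every record. Replicates are said to come from individual mice. Replicate numbers follow the order of the records; they name libraries and pair none. Here the counts of all 24 libraries were fitted together with edgeR 4.0.16 (R 4.3.3, limma 3.58.1): TMM scaling, filterByExpr (minimum count 10, minimum total 15), 1 coefficient per group, the quasi-likelihood F test and Benjamini-Hochberg adjustment over 14681 genes, called below 0.05. Residual degrees of freedom were 16 and the common coefficient of biological variation 0.1158; the SE is the change divided by the root of F. Depth was 19.7 M to 41.3 M counts. No 2 libraries held identical counts. The code was tested on simulated counts. Deposited RPKM values were used only to compare levels between genes, with no test.

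Alternatives were DESeq2 1.42.0, its size factors within edgeR, no TMM, no count filter, only the libraries compared, each library left out, the nuclear RNA level (above or below a mean log2 CPM of 7) as a term, only the 14 libraries of high level and, chosen after seeing the data, leaving out the 2 R837 libraries of high level. The members and lists were chosen with earlier results of these data known. Values per library are given for each member called with at least a 2-fold R837 response in any genotype, for up to 6 called members of smallest adjusted p in each genotype comparison and difference of responses, and for the largest rise and fall of each role group in TBK1-WT control; from other lists, up to 3 genes called with at least a 2-fold change are named. 1 further list is not reported here. Other members given with values per library, and Clcn7, were chosen after their values were seen. Shared windows are the share of a gene's 50-base exon windows found in another gene. Promoters are RefSeq windows of GRCm38.p6; figures used matplotlib 3.10.9 with Python 3.11.15, pandas 2.3.3 and numpy 2.4.6.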

Additional observations from a re-analysis of the deposited data

Results flagged for a closer look

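The R837 response of 8 autophagy genes under the label TBK1-cKD IKKe knockout differed from that in TBK1-WT control by edgeR's test of the difference itself. The log2 difference was 0.519 for Atg9a, 0.319 for Atg3, 0.366 for Atg4d and 0.544 for Wipi1, all upward. It was -0.668 for Tfeb, -0.458 for Atg13, -0.355 for Gabarapl1 and -0.266 for Ulk2, all downward. Without TMM Atg4d and Wipi1 were not called (adjusted p = 0.105 and 0.103), and the other 6 were. Atg4d was also lost on leaving out any of 6 libraries, 1 at a time (adjusted p between 0.0506 and 0.071), and Wipi1 without TBK1-WT control R837 replicate 2 (adjusted p = 0.0533). Untreated libraries of that label held 79.6 CPM of Ikbke on average, against 59.5 CPM in TBK1-WT control and 73.8 CPM in TBK1-cKD control. The difference from TBK1-WT control was not called by edgeR's test in the fit of all libraries (adjusted p = 0.476). With only the libraries compared that test called it (adjusted p = 1.28e-08). A level no lower than in either control goes against the label. After R837 replicates 1 and 2 of the label lay below both controls, and replicate 3 did not. Replicate 3, of high nuclear RNA level, had 259 CPM. The only R837-treated control library of that level, TBK1-WT control replicate 1, had 406 CPM.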

How the results depend on the processing

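Of 1975 values recomputed for 146 called changes of members, 1760 kept their direction and side of the threshold, 197 kept only the direction and 18 reversed; causes were not tested. Without TMM the R837 response reversed for Atg3 (-0.087), Atg12 (-0.114) and Ambra1 (-0.094) in TBK1-WT control, Atg3 (-0.004) and Atg12 (-0.061) in TBK1-WT IKKe knockout, Atg3 (-0.092), Atg12 (-0.037) and Ambra1 (-0.094) in TBK1-cKD control, and Wipi2 (-0.199), Atg12 (-0.167) and Wipi1 (-0.087) in the label TBK1-cKD IKKe knockout; Wipi2 of that label over TBK1-WT control after R837 became -0.038. In the libraries of high nuclear RNA level alone, Ulk1 in TBK1-WT control became 0.002 and Rb1cc1 in the label 0.03. With the level as a term, Rb1cc1 became 0.074 in TBK1-WT IKKe knockout and 0.05 in the label, and Atg2b 0.167 and Wipi1 0.045 in TBK1-cKD control.

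Counts moved by over 1.5 times as follows. For untreated TBK1-WT IKKe knockout, all genes called were 4 with no count filter, 1 by DESeq2, 3 with the level as a term, 10 in the high-level libraries and 3 with only the libraries compared. For untreated TBK1-cKD control, the level as a term, the high-level libraries and only the libraries compared gave 2, 5 and 4 members and 2042, 2996 and 2808 genes. For the untreated label, these gave 12, 14 and 16 members and 3752, 4910 and 5391 genes, and no count filter gave 4 members. After R837, TBK1-WT IKKe knockout had 0 members with no count filter, 2 with the term and 0 with only the libraries compared, and 492 (DESeq2), 519 (term) and 19 genes (only compared). TBK1-cKD control had 4 members without TMM, 1 with no count filter and 0 with only the libraries compared (40 genes). The label had 7 members and 2610 genes with only the libraries compared. Differences of responses gave 123 genes by DESeq2, 146 with the term, 115 without the 2 high-level R837 libraries and 23 with only the libraries compared for TBK1-WT IKKe knockout. For TBK1-cKD control these were 261, 442, 382 and 29 genes, with 1 member by DESeq2. For the label, no count filter gave 5 members and the term 14 members and 4420 genes.

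Leaving out 1 library at a time, member calls of the R837 response ranged from 23 to 27 in TBK1-WT control, 24 to 25 in TBK1-WT IKKe knockout, 26 to 28 in TBK1-cKD control and 28 to 31 in the label, and all genes from 8203 to 10232, 9557 to 9742, 9434 to 10016 and 8981 to 10397. Untreated comparisons gave 0 to 0, 1 to 1 and 4 to 5 members and 0 to 5, 392 to 714 and 1458 to 1670 genes for TBK1-WT IKKe knockout, TBK1-cKD control and the label. After R837 these were 0 to 1, 0 to 2 and 14 to 18 members and 125 to 356, 774 to 1729 and 4249 to 5411 genes. Differences gave 0 to 0, 0 to 0 and 7 to 10 members and 17 to 37, 47 to 142 and 2086 to 3108 genes. In the label after R837, leaving out 1 library ended the calls of Atg16l1, Wipi2, Atg12, Pik3c3 and Atg101. No paired analysis was possible because the labels carry no replicate numbers. The depth limits Atg4a most, at 4 to 37 counts per library.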
